A study of Mus musculus with 18 samples.

Results

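Arginine is the shared substrate of arginase and nitric oxide synthase, and the ornithine that arginase releases feeds the polyamines putrescine, spermidine and spermine. Ornithine decarboxylase makes putrescine, spermidine synthase and spermine synthase extend it, and an acetyltransferase marks spermidine and spermine for breakdown or export. In injured tissue arginase 1 is known as a product of alternatively activated macrophages, inducible nitric oxide synthase as a product of inflammatory ones, and polyamine synthesis as a companion of growth and cell division.

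The genes described here are 8 named enzymes of these pathways. Arginine use and supply is represented by Arg1 and Arg2 (the arginases), Nos2 (inducible nitric oxide synthase) and Ass1 (argininosuccinate synthetase, which rebuilds arginine from citrulline). Polyamine synthesis is represented by Odc1 (ornithine decarboxylase), Srm (spermidine synthase) and Sms (spermine synthase), and polyamine breakdown by Sat1 (spermidine/spermine N1-acetyltransferase). Their lines were found by gene name among the 34921 genes with values, and 7 of the 8 had values. Sms was found by its Ensembl identifier, because its line in the table bears the name of its pseudogene, Sms-ps. Arg2 was not analysed here.

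The values come from total RNA sequencing of brain tissue punched from male C57BL/6 mice, an inbred strain, at 9 weeks of age, with no genetic change stated. In photothrombosis a light-activated dye clots the vessels under a laser spot. The mice received 100 mg/kg rose bengal intraperitoneally and, 5 min later, 15 min of light at 532 nm on the right side of the skull. There were 18 libraries in 6 groups, with 3 animals per group. These are the lesioned right side after 4 h, 1 day, 3 days and 10 days, a contralateral left group, and the matching right side of sham mice, called sham right. Whether sham mice received the dye or the light is not stated. The source of the left punches is described in more than one way. The protocol takes them from mice with stroke, whereas the sample titles and the disease state read control or sham, without a time. In the titles the left and sham right libraries carry the same control label, and numbers 1 and 3 occur in both groups. Whether these are sides of the same mice is not stated. Library numbers below are those of the sample titles.

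Levels are FPKM, a fragment count scaled by transcript length and library size, as deposited. Tests used log2(FPKM + 1) in limma, with p-values adjusted over the 14016 genes that reached 1 FPKM in at least 3 libraries, and an adjusted p under 0.05 counted as a call. The added 1 makes a fold change on this scale smaller than the true one for genes with low levels. Between 12118 and 13632 genes reached 1 FPKM in a library. Mitochondrial genes made up 24.4% to 44.6% of a library's FPKM, with the maximum in library 10 days 5. The mean correlation of a library with others of its group was lowest in 10 days 5 (0.933) and contralateral left 5 (0.941). The 12 neuron markers summed to between 1158 and 1612 FPKM in all libraries, so neuronal RNA was present in every punch. In bulk tissue, a change in the number of cells of a type and a change in RNA per cell cannot be told apart. The 4 lesion times share the sham right libraries and are not independent of each other.

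Arg1 rose in the lesion at 3 days and was low again at 10 days. It was the only one of the 6 members tested that was called in any comparison. Arg1 reached 1 FPKM only in the 3-day libraries and in libraries 1 day 3 and 1 day 4. It is therefore among the 6 because of the times at which it was high, while Nos2, below 1 FPKM throughout, is not among them. With no filter on low values Arg1 was called at 3 days as well (limma adjusted p = 3.18e-05). At 3 days 1 of 6 members was called, against 7.36% of all genes tested. At 4 h, 1 day and 10 days 0 of 6 were called, where the shares of all genes tested were 2.18%, 1.18% and 7.13%. At an unadjusted p under 0.05 the counts were 1 member at 4 h, 3 at 1 day, 4 at 3 days and 2 at 10 days. The shares of all genes tested were 16.5%, 8.58%, 16.3% and 19.4%, so the count at 4 h was near the background. In the contralateral left group 0 of 6 were called, against 0.0285% of all genes, and 0 had an unadjusted p under 0.05 (7.68% of all genes). Over all lesion times together, limma's F-test called 1 member, Arg1 (adjusted p = 1.79e-06), against 13.5% of all genes.

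**Figure D1:**
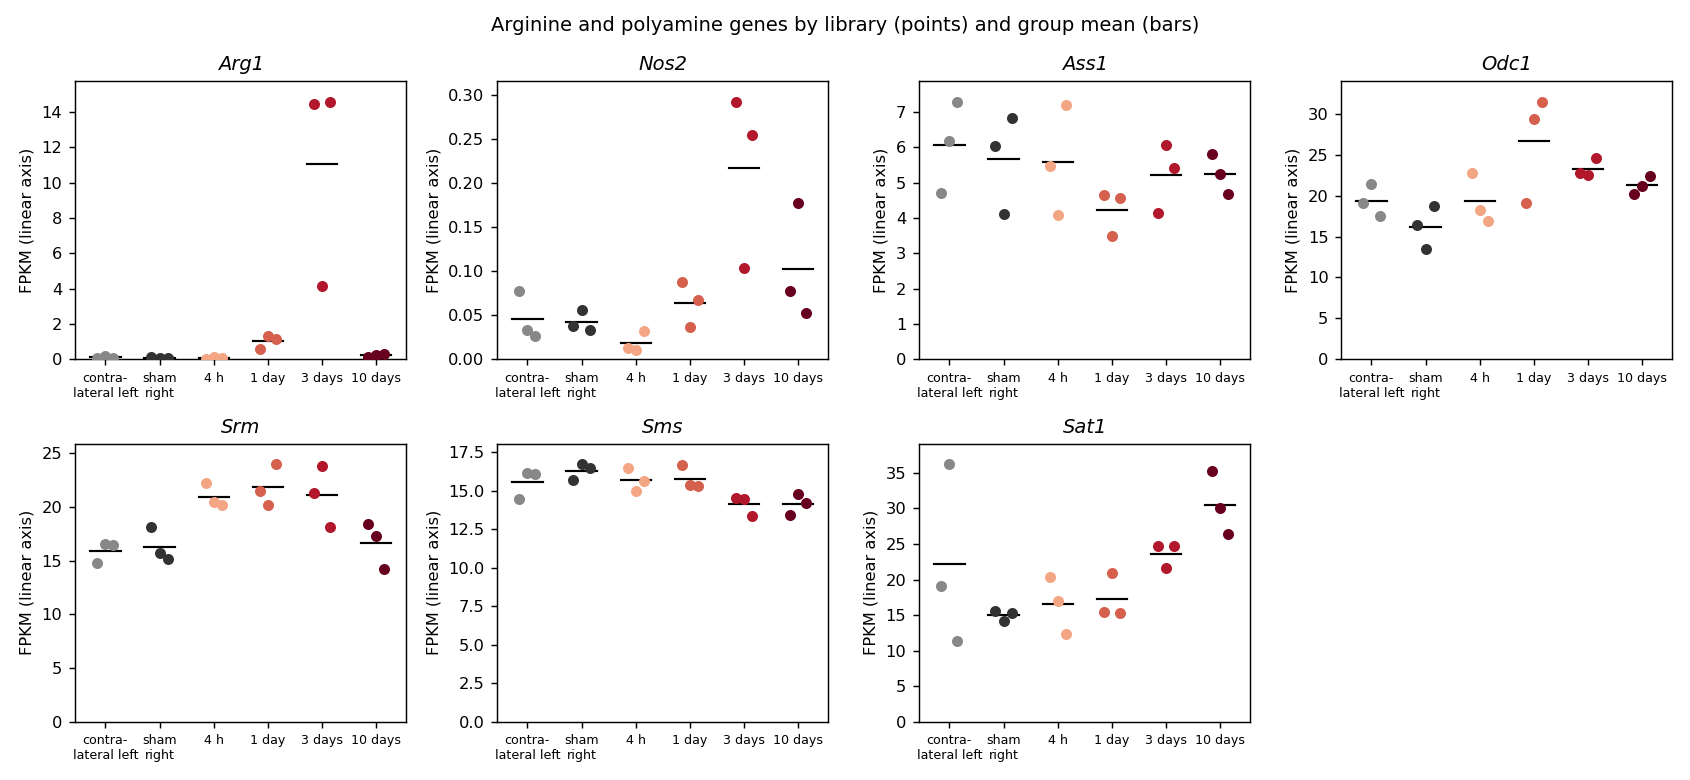
FPKM (linear axes) of the 7 genes with values in each library (points), with the group mean as a bar, for the contralateral left group, sham right and the lesion at 4 h, 1 day, 3 days and 10 days. Arg1 stands at 4.15 to 14.6 FPKM at 3 days and at or below 1.32 FPKM in all other libraries, while Sms stays between 13.3 and 16.7 FPKM throughout.

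Arg1 (ENSMUSG00000019987; GRCm38, chr10:24915221-24927484, minus strand, protein-coding) is the arginase best known from liver and from activated macrophages. At 4 h it was listed at 0 in library 2 and stood at 0.103 and 0.0728 FPKM in libraries 3 and 6. At 1 day it stood at 0.578, 1.32 and 1.16 FPKM in libraries 1, 3 and 4. At 3 days it reached 14.5, 4.15 and 14.6 FPKM in libraries 1, 2 and 8.
By 10 days the level was down to 0.120, 0.211 and 0.312 FPKM in libraries 1, 2 and 5, against 0.137, 0.0378 and 0.0654 FPKM in sham right 1, 2 and 3. All 1-day and all 3-day libraries lay above every sham right library, as was so for 14.3% and 27.2% of all genes tested, while the 4-h and 10-day libraries overlapped the sham right range. Library 2 of 3 days was the lowest of its group and still above every library of the other groups. The contralateral left group had 0.0450, 0.151 and 0.0775 FPKM in libraries 1, 3 and 5, which overlaps sham right as well.

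The group mean of Arg1 at 3 days was 11.1 ± 6.01 FPKM, against 0.0801 ± 0.0512 FPKM in sham right (SD, n = 3 each). The log2 fold change was 3.32 ± 0.30 (SE; limma adjusted p = 2.14e-06). It was called under all 18 alternatives of scaling, filter, model and left-out library, with log2 fold changes of 3.05 to 5.79. The highest came from a pseudocount of 0.1 FPKM in place of 1. At 1 day Arg1 averaged 1.02 ± 0.391 FPKM, and its log2 fold change against sham right, 0.88 ± 0.30, was not called (limma adjusted p = 0.261). With the smaller pseudocount it was 2.60 and called (limma adjusted p = 0.0105). After rescaling without mitochondrial genes it was 1.92 and called (limma adjusted p = 0.0225). With only the 2 groups in the fit it stayed at 0.88 and was called (limma adjusted p = 0.0311). The 1-day call was made under 3 of 18 alternatives and so depends on the setting. At 10 days the log2 fold change was 0.17 ± 0.30 (limma adjusted p = 0.792).

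Steps between successive times were tested directly. At 1 day against 4 h 0 of 6 members were called, against 1.23% of all genes, and 2 had an unadjusted p under 0.05 (1416 of all 14016 genes). Arg1 was 0.91 ± 0.30 higher on the log2 scale at 1 day than at 4 h (limma adjusted p = 0.197), and its groups did not overlap, as was so, in this direction, for 12.6% of all genes. At 3 days against 1 day 1 of 6 members was called, Arg1, against 5.22% of all genes. It was higher by 2.43 ± 0.30 on the log2 scale (limma adjusted p = 1.09e-04), without overlap between the groups (16.9% of all genes). At 10 days against 3 days 1 of 6 was called, again Arg1, against 2.02% of all genes. Its log2 fold change was -3.15 ± 0.30 (limma adjusted p = 3.04e-05), again without overlap (20.1% of all genes), and it lost the call when only those 2 groups entered the fit (limma adjusted p = 0.118).

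**Figure D2:**
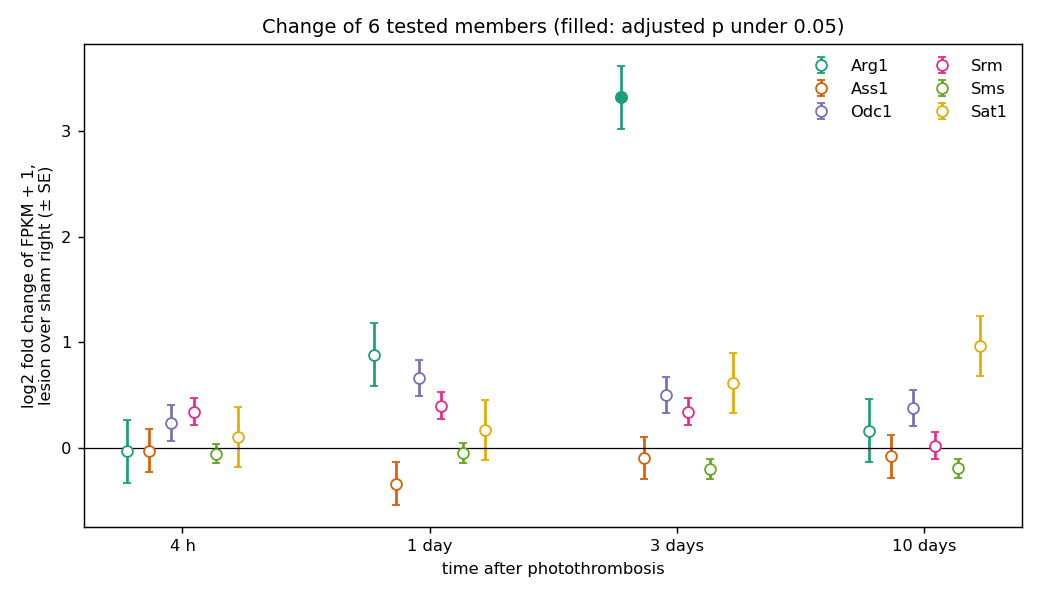
Log2 fold change of FPKM + 1 of the 6 tested members in the lesion over sham right at each time, with standard errors. The 1 filled point, Arg1 at 3 days (3.32), is the 1 value with an adjusted p under 0.05, while Sat1 at 10 days (0.97) has an adjusted p of 0.0505.

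Markers of several cell types were higher in the lesion at the time Arg1 was. The 15 monocyte and macrophage markers with values summed to 37.7 to 51.7 FPKM at 1 day, 133 to 278 FPKM at 3 days and 625 to 2189 FPKM at 10 days, against 23.4 to 29.4 FPKM in sham right. Lyz2, the lysozyme of phagocytes, carried most of the sum at 10 days, at 1012 ± 771 FPKM, against 13.3 ± 3.39 FPKM in sham right (SD, n = 3 each). Of the 14 markers that were tested, 9 were higher than sham right at 3 days and 11 at 10 days, and 0 were lower. At 10 days against 3 days 3 were higher, 1 was lower and 10 were not called.
Single markers differed in their course. The highest group mean was at 10 days for 11 of the 15 and at 3 days for the other 4, Chil3, Mrc1, Fn1 and Msr1. Chil3, a chitinase-like protein of alternatively activated macrophages, averaged 1.41 ± 0.185 FPKM at 3 days and 0.300 ± 0.215 FPKM at 10 days, against 0.0473 ± 0.0324 FPKM in sham right (SD, n = 3 each). Msr1, a scavenger receptor, averaged 3.54 ± 1.69 FPKM at 3 days and 3.44 ± 1.71 FPKM at 10 days, against 0.0566 ± 0.0163 FPKM in sham right (SD, n = 3 each).
The 10 genes of dividing cells summed to 66.3 to 110 FPKM at 3 days and 43.3 to 59.8 FPKM at 10 days, against 32.8 to 37.3 FPKM in sham right. Of these genes 9 were higher at 3 days and 2 at 10 days, and 8 were lower at 10 days than at 3 days. The 10 reactive astrocyte markers summed to 580 to 857 FPKM at 3 days, against 58.3 to 69.0 FPKM in sham right, with Gfap, the filament protein of astrocytes, at 434 ± 78.2 FPKM, against 48.9 ± 5.47 FPKM in sham right (SD, n = 3 each). All 10 were called higher at 1 day and at 3 days, and the highest group mean was at 3 days for 6, at 1 day for 3 and at 10 days for 1. Homeostatic microglia markers summed to 290 to 408 FPKM at 3 days and 479 to 582 FPKM at 10 days, against 107 to 135 FPKM in sham right. The 11 neutrophil markers with values summed to 8.19 to 13.5 FPKM at 3 days, against 1.87 to 6.80 FPKM in sham right. Their sum was 7.53 to 28.4 FPKM at 1 day and 6.44 to 17.7 FPKM in the contralateral left group, which spans the 3-day range. Ly6g, which defines neutrophils, was at 0 in 14 of the 18 libraries. Of the 4 neutrophil markers tested, Csf3r was called higher at 3 days (log2 fold change 1.43, limma adjusted p = 1.42e-04) and S100a8, S100a9 and Retnlg were not. Mmp8, below the filter, averaged 0.430 ± 0.272 FPKM at 3 days, against 0.00675 ± 0.0117 FPKM in sham right (SD, n = 3 each). The part of these cell types in the Arg1 result was not tested.

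**Figure D3:**
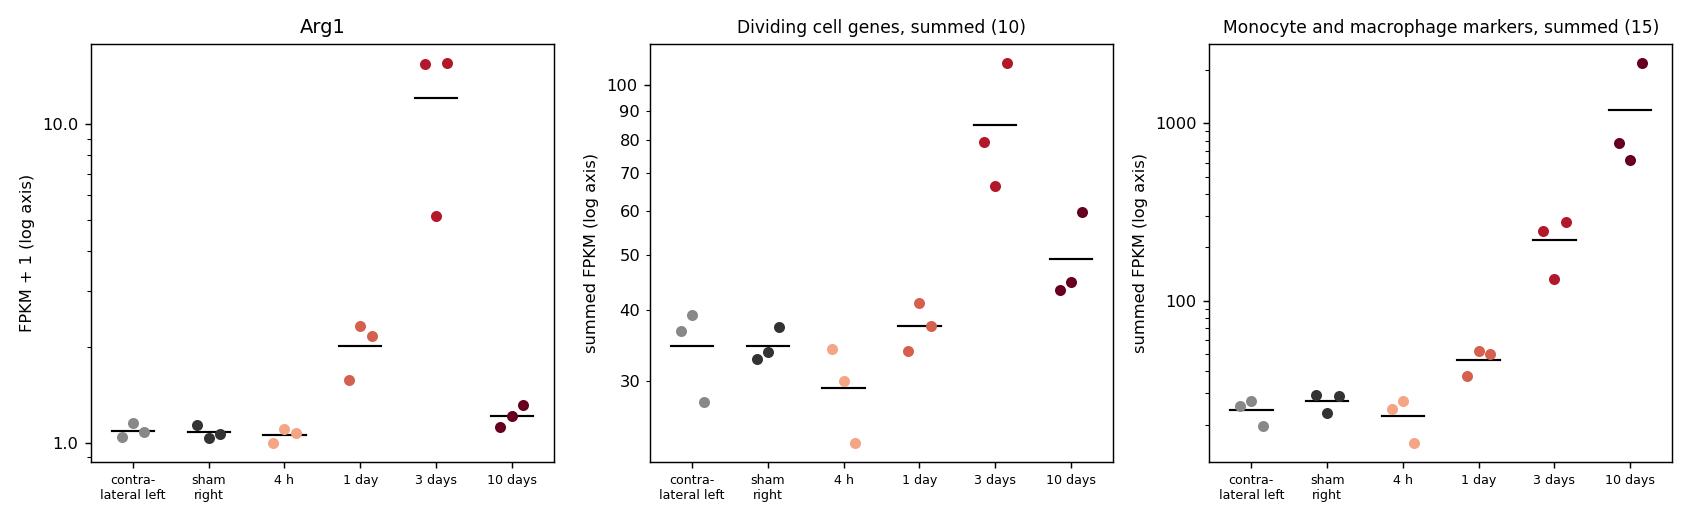
Arg1 (FPKM + 1, log axis), the summed FPKM of 10 dividing cell genes and the summed FPKM of 15 monocyte and macrophage markers (log axes) by group, each point a library and each bar a group mean. Arg1 and the dividing cell genes are highest at 3 days, whereas the macrophage sum, most of it Lyz2, is highest at 10 days, at 625 to 2189 FPKM.

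Over the 18 libraries, log2 Arg1 had a Pearson correlation of 0.85 with the summed dividing cell genes, 0.77 with reactive astrocyte markers and 0.36 with monocyte and macrophage markers. The 3 genes whose pattern was most like that of Arg1 were Fignl1, an ATPase of DNA repair (r = 0.967), Uhrf1, which maintains DNA methylation through replication (r = 0.967), and Tpx2, a spindle protein (r = 0.949). Tpx2 averaged 4.31 ± 1.59 FPKM at 3 days and 0.988 ± 0.121 FPKM at 10 days, against 0.502 ± 0.0671 FPKM in sham right (SD, n = 3 each). These correlations are descriptions over libraries that share the same 6 groups, and Fignl1, Uhrf1, Tpx2 and all 10 dividing cell genes had their highest group mean at 3 days, as Arg1 did.

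Nos2 (ENSMUSG00000020826; GRCm38, chr11:78920787-78960254, plus strand, protein-coding), which turns arginine into nitric oxide, was at or below 0.293 FPKM in all libraries. At 3 days it stood at 0.293, 0.104 and 0.254 FPKM in libraries 1, 2 and 8, against 0.0374, 0.0554 and 0.0335 FPKM in sham right 1, 2 and 3. It was 0.0877, 0.0365 and 0.0675 FPKM at 1 day and 0.0772, 0.177 and 0.0528 FPKM at 10 days, and at or below 0.0319 FPKM at 4 h.
All 3-day libraries lay above every sham right library, as was so for 27.2% of all genes tested, which do not include Nos2. The 1-day and 10-day libraries overlapped sham right. At 4 h the highest value, 0.0319 FPKM, was close to the lowest of sham right, 0.0335 FPKM. A single fragment on a transcript of 1 kilobase would correspond to about 0.0339 to 0.0813 FPKM at the rough depth estimated for these libraries. Nos2 has 4412 exonic bases, so a fragment on it is worth a smaller FPKM. The lowest Nos2 values are therefore worth only a few fragments, and the 3-day values more. Nos2 failed the filter of 1 FPKM and was left out of the counts above. With a filter of 0.1 FPKM its log2 fold change at 3 days was 0.22 ± 0.06 and passed the threshold (limma adjusted p = 0.0315), a setting under which 22436 genes were tested. Only the 3-day libraries and library 10 days 2 reached 0.1 FPKM. Nos2 therefore entered that test mainly through the group in which it was high. With no filter on low values it passed as well (limma adjusted p = 0.0306). In FPKM, which corrects for length, Arg1 at 3 days (11.1 ± 6.01) stood far above Nos2 (0.217 ± 0.0998; SD, n = 3 each), although both were highest at that time.

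Ass1 (ENSMUSG00000076441; GRCm38, chr2:31470207-31520672, plus strand, protein-coding) overlapped sham right at every lesion time. It stood at 5.47, 4.09 and 7.19 FPKM at 4 h, at 4.66, 3.48 and 4.58 FPKM at 1 day, and at 4.15, 6.07 and 5.42 FPKM at 3 days. At 10 days it stood at 5.80, 5.26 and 4.67 FPKM, against 6.06, 4.11 and 6.84 FPKM in sham right. The lowest and the highest values, 3.48 and 7.30 FPKM, came from 1 day 3 and contralateral left 5, and the log2 fold change farthest from 0 was -0.33 ± 0.20 at 1 day (limma adjusted p = 0.754). Gm5424, a processed copy with 99.5% identity over 1240 aligned bases, held 0.370 to 1.297 FPKM, so that a part of the Ass1 fragments may have been assigned to either gene.

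Odc1 (ENSMUSG00000011179; GRCm38, chr12:17544794-17551505, plus strand, protein-coding), the rate-limiting step into polyamines, was higher in most lesion libraries by a modest amount. It stood at 22.8, 18.3 and 16.9 FPKM in libraries 2, 3 and 6 at 4 h, and at 19.1, 29.4 and 31.6 FPKM in libraries 1, 3 and 4 at 1 day. It stood at 22.8, 22.6 and 24.6 FPKM at 3 days and at 20.2, 21.2 and 22.4 FPKM at 10 days, against 16.5, 13.5 and 18.7 FPKM in sham right 1, 2 and 3.
The 1-day, 3-day and 10-day libraries all lay above every sham right library, as did 14.3%, 27.2% and 13.8% of all genes tested at those times. The mean at 1 day was 26.7 ± 6.65 FPKM, against 16.2 ± 2.60 FPKM in sham right (SD, n = 3 each). None of the log2 fold changes was called. They were 0.24 ± 0.17 at 4 h, 0.66 ± 0.17 at 1 day (limma adjusted p = 0.0891), 0.51 ± 0.17 at 3 days (0.0989) and 0.38 ± 0.17 at 10 days (0.233). Without library 1 day 1, the lowest of its group, the 1-day change was 0.88 and called (limma adjusted p = 0.00817). The contralateral left libraries, at 19.1, 21.5 and 17.6 FPKM, overlapped sham right but reached into the lesion range, and their log2 difference was 0.25 ± 0.17 (limma adjusted p = 0.793).

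A small nucleolar RNA gene, Gm22748, lies within the span of Odc1 on the same strand. Whether it lies in an exon of Odc1, where its reads could not be told from those of Odc1, was not examined. Over the 18 libraries the genes most like Odc1 were the chemokine Ccl12 (r = 0.810), Pdlim4 (r = 0.795) and Ptges, a prostaglandin E synthase (r = 0.792). Ccl12, a monocyte attractant, averaged 56.0 ± 14.9 FPKM at 1 day, against 1.16 ± 0.698 FPKM in sham right (SD, n = 3 each), a far larger difference than that of Odc1. The correlation of Odc1 with Arg1 was 0.47.

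Srm (ENSMUSG00000006442; GRCm38, chr4:148591503-148594993, plus strand, protein-coding) had its higher values at the first 3 lesion times. It stood at 22.2, 20.4 and 20.1 FPKM at 4 h, at 21.4, 20.1 and 23.9 FPKM at 1 day, and at 21.3, 23.8 and 18.1 FPKM at 3 days. It was 18.4, 17.3 and 14.2 FPKM at 10 days, against 18.1, 15.7 and 15.1 FPKM in sham right. Libraries of 4 h, 1 day and 3 days all lay above every sham right library, although the lowest 3-day value exceeded the highest sham right value only narrowly. For comparison, 18.8%, 14.3% and 27.2% of all genes tested lay wholly above sham right at 4 h, 1 day and 3 days.
The log2 fold changes were 0.34 ± 0.13 at 4 h (limma adjusted p = 0.190), 0.40 ± 0.13 at 1 day (0.223) and 0.35 ± 0.13 at 3 days (0.143), and 0.02 ± 0.13 at 10 days (0.938). None was called. Without libraries contralateral left 5 and 10 days 5, whose removal lowers the common estimate of the spread, Srm was called at 4 h (limma adjusted p = 0.0460) and at 3 days (0.0439). In the contralateral left group it stood at 14.8, 16.5 and 16.4 FPKM, overlapping sham right. The genes most like Srm were Plcl2 (r = 0.865), the phosphatase methylesterase Ppme1 (r = 0.865) and Ubr7 (r = 0.857).

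Sms (ENSMUSG00000071708; GRCm38, chrX:157443855-157492287, minus strand, protein-coding) stayed between 13.3 and 16.7 FPKM in all libraries. It stood at 16.5, 15.0 and 15.6 FPKM at 4 h, at 16.6, 15.4 and 15.3 FPKM at 1 day, and at 14.5, 14.5 and 13.3 FPKM at 3 days. At 10 days it stood at 13.4, 14.8 and 14.2 FPKM, against 15.7, 16.7 and 16.4 FPKM in sham right. The 3-day and 10-day libraries all lay below every sham right library, as did 9.67% and 13.2% of all genes tested. Neither difference was called, at -0.19 ± 0.09 on the log2 scale at both times (limma adjusted p = 0.319 at 3 days and 0.274 at 10 days). The genes most like Sms were Insig1, a brake on cholesterol synthesis (r = 0.795), Inpp5f (r = 0.771) and Rragb (r = 0.754).

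The value of Sms is uncertain, because a processed pseudogene, Sms-ps (ENSMUSG00000081752, also on chromosome X), holds the same coding sequence. All 1101 of its 1101 bases are identical to the coding sequence of Sms in GENCODE M21 on GRCm38. The first 60 coding bases of both are shown here because no read within them can be assigned to either gene, with the start codon in capitals.
Sms: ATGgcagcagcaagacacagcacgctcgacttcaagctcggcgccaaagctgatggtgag
Sms-ps: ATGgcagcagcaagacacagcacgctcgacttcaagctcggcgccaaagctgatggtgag
The Sms-ps line held 10.8 to 15.1 FPKM over all libraries, close to that of Sms. At 3 days Sms-ps averaged 12.1 ± 1.14 FPKM, against 13.9 ± 1.27 FPKM in sham right (SD, n = 3 each), a log2 difference of -0.19 ± 0.10 (limma adjusted p = 0.427). The close copies of the other members with values held little. Gm17709, like Odc1 over 937 bases, held 0.170 to 1.303 FPKM.

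Sat1 (ENSMUSG00000025283; GRCm38, chrX:155213132-155216449, minus strand, protein-coding), the enzyme that starts polyamine breakdown, had its highest lesion values at 10 days. It stood at 20.3, 17.0 and 12.4 FPKM at 4 h, at 15.5, 20.9 and 15.3 FPKM at 1 day, and at 24.7, 21.6 and 24.7 FPKM at 3 days. At 10 days it reached 35.2, 30.0 and 26.4 FPKM in libraries 1, 2 and 5, against 15.6, 14.2 and 15.3 FPKM in sham right 1, 2 and 3. The 3-day and 10-day libraries all lay above every sham right library, as was so for 27.2% and 13.8% of all genes tested, and those of 4 h and 1 day overlapped it.
The means were 30.5 ± 4.43 FPKM at 10 days and 15.0 ± 0.771 FPKM in sham right (SD, n = 3 each), and the log2 fold change of 0.97 ± 0.28 just missed the threshold (limma adjusted p = 0.0505). At 3 days the log2 fold change was 0.62 ± 0.28 (limma adjusted p = 0.288). The contralateral left libraries spread from 11.3 FPKM in library 5 through 19.1 FPKM in library 1 to 36.2 FPKM in library 3, the highest Sat1 value in the study. This spread enters the common error of Sat1. Without contralateral left 5 and 10 days 5, Sat1 was called at 10 days at 1.06 ± 0.23 (limma adjusted p = 0.00822) and also in the left group, at 0.77 (0.0321). At 10 days it was called as well under 2 other scalings (limma adjusted p = 0.0227 and 0.0401) and with only the 2 groups in the fit (0.00988). The mean of the left group relative to sham right turned with a single library, at 0.39 ± 0.28 on the log2 scale with all 3 and -0.03 without library 3.

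Sat1 followed the summed homeostatic microglia markers with r = 0.77 and the summed monocyte and macrophage markers with r = 0.69 over the 18 libraries. The part of these cells in its level was not tested. The genes most like it were Serp1, a protein of the endoplasmic reticulum stress response (r = 0.913), and the predicted genes Gm3379 (r = 0.890) and Gm5621 (r = 0.883). Serp1 averaged 23.9 ± 0.925 FPKM at 10 days, against 14.6 ± 1.49 FPKM in sham right (SD, n = 3 each).

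Apart from the 1 added to each FPKM, the scaling of a library cancels from a ratio of 2 of its genes. The log2 ratio of Sms to Srm sets the second aminopropyl transfer of the pathway against the first. It averaged -0.39 at 4 h, -0.44 at 1 day, -0.54 at 3 days and -0.21 at 10 days, against 0.00 in sham right. Pooled over time, it was -0.40 ± 0.18 in the lesion (SD, n = 12) and 0.00 ± 0.17 in sham right (SD, n = 3). The difference of -0.40 gave p = 0.00440 in a two-sided exact permutation test, or 0.00879 adjusted over the 2 ratios tested, where the smallest p possible was 0.00220. The ranges overlapped, since library 10 days 5 stood at -0.00 and sham right 1 at -0.20. Without sham right 3 the difference was -0.34 and its adjusted exact p was 0.0659, so the call rests on 1 of 3 control libraries. Summing the Sms and Sms-ps lines, an alternative chosen after seeing the data, gave -0.42. The contralateral left libraries averaged -0.03 ± 0.00227.

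**Figure D4:**
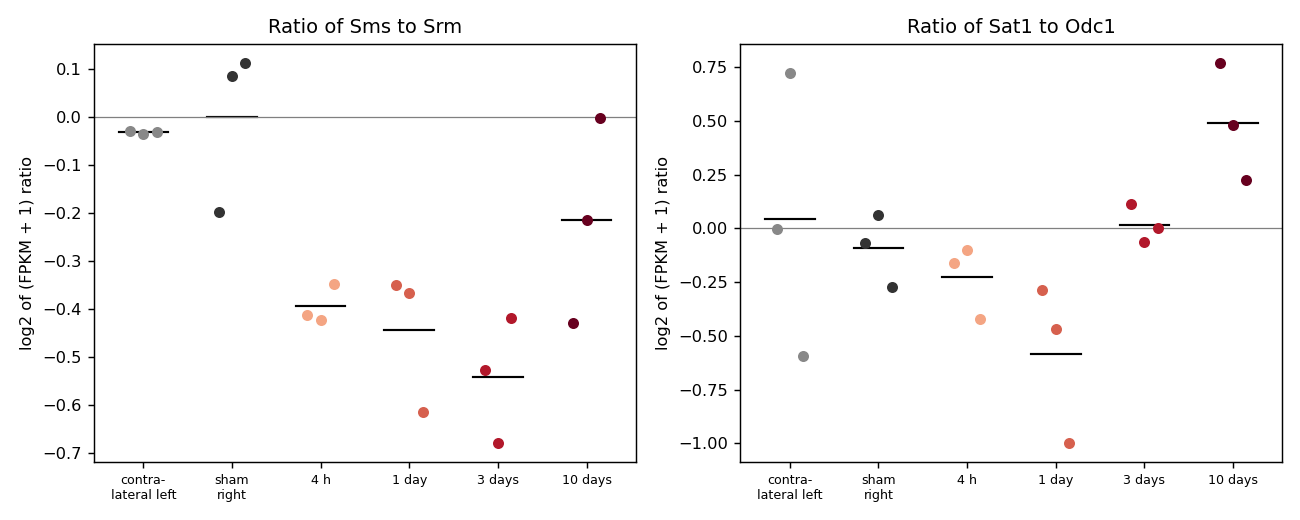
Log2 ratio of FPKM + 1 of Sms to Srm and of Sat1 to Odc1 in each library (points), with group means as bars. The Sms to Srm ratio averages -0.54 at 3 days and 0.00 in sham right, and the Sat1 to Odc1 ratio is lowest at 1 day (-0.59) and highest at 10 days (0.49).

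The log2 ratio of Sat1 to Odc1, breakdown against entry, had its lowest mean at 1 day and its highest at 10 days. It averaged -0.23 at 4 h, -0.59 ± 0.37 at 1 day, 0.02 ± 0.09 at 3 days and 0.49 ± 0.27 at 10 days, against -0.09 ± 0.17 in sham right (SD, n = 3 each). The 1-day libraries all lay below, and the 10-day libraries all above, the sham right libraries. Pooled over the 4 times the difference was 0.02 (two-sided exact permutation p = 0.949), a mean of opposed values. With 3 libraries against 3, a single time cannot go below an exact p of 0.10, so the times are given as values without a test.

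Of the other genes around arginine and polyamines, 5 were called at a lesion time. A list of 57 was examined, of which 56 had values and 47 passed the filter. Of the 25 arginine transport and metabolism genes tested, 3 were higher than sham right at 3 days and 1 at 10 days, as were 6.91% and 6.21% of all genes tested. Of the 23 polyamine genes tested, 2 were higher at 3 days and 1 at 10 days. The antiporter subunit Slc3a2 is in both lists. At 4 h and 1 day 0 were called, against 2.18% and 1.18% of all genes tested, and 0 were lower at any lesion time. Of all 14016 genes tested, 121, 39, 64 and 129 were lower at 4 h, 1 day, 3 days and 10 days. The median log2 fold change at 3 days was 0.13 in both lists, against 0.08 over all genes tested. At 10 days it was -0.13 and -0.12, against -0.07 over all genes.

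Slc7a7, the light chain of the y+L exporter of arginine, was called at 2 times. It stood at 1.47, 1.18 and 1.71 FPKM at 3 days and 2.76, 2.21 and 2.46 FPKM at 10 days, against 0.489, 0.364 and 0.406 FPKM in sham right. All 6 of these lesion libraries lay above sham right, as was so for 27.2% of all genes tested at 3 days and 13.8% at 10 days. The log2 fold changes were 0.78 ± 0.11 at 3 days (limma adjusted p = 1.98e-04) and 1.29 ± 0.11 at 10 days (9.10e-07). Slc3a2, its heavy chain partner, stood at 28.4, 25.7 and 25.9 FPKM at 3 days, against 19.8, 16.7 and 15.6 FPKM in sham right (0.59 ± 0.17, limma adjusted p = 0.0424). Slc7a7 was highest at 10 days, when Arg1 was low, and Slc3a2 was called at 3 days and not at the other 3 times.

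Gch1, which makes the first intermediate of tetrahydrobiopterin, a cofactor of nitric oxide synthases, stood at 1.42, 0.912 and 1.59 FPKM at 3 days, against 0.618, 0.642 and 0.416 FPKM in sham right (0.56 ± 0.15, limma adjusted p = 0.0333). Atp13a4, a P5-type ATPase of the family that holds polyamine transporters, stood at 2.80, 1.97 and 2.80 FPKM at 3 days, against 1.27, 1.66 and 1.72 FPKM in sham right (0.46 ± 0.13, limma adjusted p = 0.0401). Paox, an oxidase of the acetylated polyamines that Sat1 makes, stood at 2.30, 2.07 and 1.55 FPKM at 10 days, against 1.34, 0.970 and 1.24 FPKM in sham right (0.44 ± 0.12, limma adjusted p = 0.0360). Each of these groups lay wholly above sham right, as was so for 27.2% of all genes tested at 3 days and 13.8% at 10 days. The contralateral left group reached into the lesion values for Atp13a4 (up to 2.02 FPKM) and Paox (up to 1.63 FPKM), and not for Gch1 (up to 0.658 FPKM). The antizymes Oaz1 and Oaz2, the inhibitors of ornithine decarboxylase, the spermine oxidase Smox, and Amd1, which supplies the aminopropyl donor, were not called at any lesion time. Amd1 averaged 35.6 ± 3.94 FPKM at 3 days, against 43.2 ± 3.59 FPKM in sham right (SD, n = 3 each; log2 fold change -0.28, limma adjusted p = 0.413). Mat2a, a synthetase of S-adenosylmethionine, averaged 20.5 ± 3.63 FPKM at 3 days, against 14.7 ± 0.517 FPKM in sham right (0.44, limma adjusted p = 0.434). Nos1, the neuronal nitric oxide synthase, averaged 1.15 ± 0.264 FPKM at 3 days, against 2.16 ± 0.683 FPKM in sham right (-0.54, limma adjusted p = 0.508). Oaz1, Oaz2, Smox, Amd1, Mat2a and Nos1 were picked after their values were seen.

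**Figure D5:**
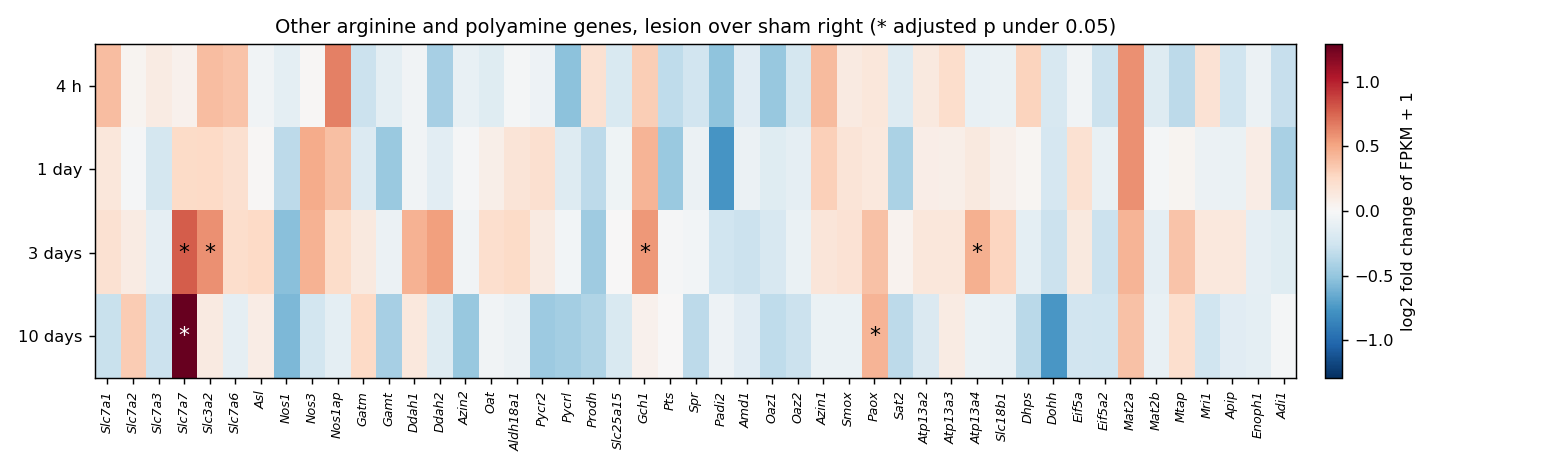
Log2 fold change of FPKM + 1 of the 47 tested arginine and polyamine genes that are not among the 8, in the lesion over sham right, with rows for 4 h, 1 day, 3 days and 10 days and an asterisk where the adjusted p is under 0.05. Slc7a7 is the 1 gene with asterisks at 2 times (0.78 and 1.29).

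The members themselves were weakly related over the 18 libraries. Among the 15 pairs of tested members, Pearson correlations ran from -0.57 for Sms with Sat1 to 0.47 for Arg1 with Odc1. Arg1 and Sat1 had a correlation of 0.25. Ordered by level in sham right, Srm (16.3 ± 1.59 FPKM), Sms (16.3 ± 0.531), Odc1 (16.2 ± 2.60) and Sat1 (15.0 ± 0.771) lay within each other's spread or close to it. Ass1 followed at 5.67 ± 1.41 FPKM, and Arg1 (0.0801 ± 0.0512) and Nos2 (0.0421 ± 0.0117) were far below (SD, n = 3 each). At 10 days Sat1 led at 30.5 ± 4.43 FPKM, ahead of Odc1 (21.3 ± 1.09), Srm (16.6 ± 2.18) and Sms (14.1 ± 0.658), with no overlap between the libraries of Sat1 and those of the other 3.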

How the data were processed

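The tools named are Trimmomatic 0.36, HISAT2 2.1.0, and StringTie 1.3.4d on build GRCm38, per the submitters' processing notes. The annotation, strand handling and settings are not given in the sources used here. Levels were taken as the FPKM that the authors deposited, and no later scaling between libraries is stated. The FPKM of a library did not add up to a fixed total, with sums from 311067 to 470682. Whether more mitochondrial RNA went with lower values of other genes was not tested. The authors also deposited p-values and q-values for each gene without naming the groups compared, and these were not used. The copy used here holds 34921 complete lines, where its p and q values imply 38022, so a part was not analysed here. The depth per library is unknown; steps in the low values of 7410 single-exon genes gave a rough value of 1 fragment, which served only to judge low values.

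limma 3.58.1 (R 4.3.3) was applied to log2(FPKM + 1), with 1 mean per group over all 18 libraries and empirical Bayes moderation with trend and robust options (statmod 1.5.0). Contrasts were adjusted by the Benjamini-Hochberg method over 14016 genes with at least 1 FPKM in 3 libraries, and an F-test covered the 4 lesion contrasts. The fit was tested on simulated data. The 2 ratios were tested by exact permutation over libraries (numpy 2.4.6). Replicates are animals per the labels, and p-values measure the spread between these libraries. Coordinates come from GENCODE M21 on GRCm38. Copies of members were sought with blastn 2.17.0, with at least 95% identity over 300 bases.

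The members and the gene lists were chosen with earlier results of these data known. Named genes are all members, list genes called at a lesion time, markers at 0 or defining a cell type, and the 3 genes most correlated with each tested member over 18 libraries. Oaz1, Oaz2, Smox, Amd1, Mat2a, Nos1 and the other markers given with values were named outside this rule, after their values were seen. Alternatives changed the pseudocount, filter, scaling, groups in the fit, control group, moderation, replicate block and libraries included.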

Additional observations from a re-analysis of the deposited data

Results flagged for a closer look

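Arg1 was singled out because its change relative to sham right differed between successive lesion times by a direct test. It was 2.43 ± 0.30 higher on the log2 scale at 3 days than at 1 day (limma adjusted p = 1.09e-04), with all 3 libraries of 3 days above all 3 of 1 day. Its log2 fold change at 10 days against 3 days was -3.15 ± 0.30 (limma adjusted p = 3.04e-05), with all 3 libraries of 10 days below all 3 of 3 days. Leaving out 1 library at a time gave 2.16 to 2.96 for the first step and -3.68 to -2.88 for the second.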

How the results depend on the processing

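Arg1 kept its call at 3 days under all 18 alternatives and at 3 days against 1 day under all 16. Counts of members called over lesion against sham right, contralateral left against sham right and successive times moved as follows. A pseudocount of 0.1 FPKM gave 1 at 1 day and 1 at 1 day against 4 h (Arg1). No filter, or a filter of 0.1 FPKM, gave 2 at 3 days and 2 at any time (with Nos2). Rescaling the other genes to a fixed sum, without mitochondrial genes, also raises all values, so that the added 1 weighs less (Arg1 at 3 days 4.92), and the parts of both were not separated. It gave 2 at 1 day (Arg1 and Odc1), 1 at 10 days (Sat1), 1 at 1 day against 4 h and 2 at any time. Median-of-ratios scaling gave 1 at 10 days (Sat1). Fitting only the 2 groups compared gave 1 at 1 day, 3 at 3 days, 1 at 10 days and 0 at 10 days against 3 days. Both control groups together gave 2 at 3 days and 2 at any time (with Srm). Without contralateral left 5 and 10 days 5 there was 1 at 4 h, 1 at 1 day, 2 at 3 days, 1 at 10 days, 1 in the left group and 3 at any time. Leaving out 1 library gave 0 to 1 at 1 day and 1 to 2 at any time, both through 1 day 1. The cause was not tested, except that a setting with fewer groups or libraries changes the common estimate of the spread. Replicate numbers are shared by at most 2 libraries of the groups compared. Same-numbered libraries of any 2 groups deviated together in 9 of 23 pairs (r over 0.1, highest 0.41). Differently numbered ones did so in 36 of 112 pairs (highest 0.66). The main fit does not take the numbers as pairs. Contralateral left 1 with sham right 1 gave r = 0.22, and contralateral left 3 with sham right 3 gave 0.10. These may be sides of the same mice, which a count over all groups cannot decide. With a replicate block 1 member was called at 10 days (Sat1) and 2 at any time, and the log2 fold change was 0.0187 for Arg1 at 4 h and 0.0020 for Sms at 1 day.

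Small log2 fold changes that were not called changed sign. Rescaling without mitochondrial genes gave 0.0926 for Ass1 and 0.0694 for Sms at 4 h and 0.0209 for Sms at 1 day, and median-of-ratios scaling gave 0.0023 for Ass1 at 10 days. Contralateral left as the control gave -0.0110 for Odc1, 0.0135 for Sms and -0.28 for Sat1 at 4 h, and 0.0207 for Sms and -0.21 for Sat1 at 1 day. Both controls together gave -0.0881 and -0.0210 for Sat1 at 4 h and 1 day. Leaving out 1 library gave -0.0594 to 0.0112 for Arg1, -0.20 to 0.15 for Ass1 and -0.0483 to 0.29 for Sat1 at 4 h, -0.27 to 0.0380 for Ass1 at 3 days, and -0.26 to 0.0526 for Ass1 and -0.0499 to 0.13 for Srm at 10 days. For Sat1 in the left group it gave -0.0291 to 0.77. The pooled Sat1 to Odc1 ratio was -0.0506 with both controls, -0.0106 without contralateral left 5 and 10 days 5, and -0.0728 to 0.10 without 1 library. For Sms to Srm the last range was -0.50 to -0.34.

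Over all genes, the calls at 4 h, 1 day, 3 days and 10 days were 306, 165, 1032 and 1000. They were 1806, 418, 1772 and 1028 without contralateral left 5 and 10 days 5, 761, 323, 1834 and 695 with only the 2 groups, and 106, 62, 709 and 904 with the replicate block. In the left group 4 genes were called, against 2760 without those 2 libraries. Rescaling without mitochondrial genes moved the median log2 fold change over all genes from 0.01 to 0.12 at 4 h and from -0.15 to -0.25 at 10 days against 3 days. In that last comparison 116 genes were higher and 167 lower, against 151 and 120 with median-of-ratios scaling and 55 and 125 without mitochondrial genes. At 1 day against 4 h 119 were higher and 53 lower, against 97 and 87 with median-of-ratios scaling. Over all alternatives that leave out no single library, calls ranged over 13 to 706 for 1 day against 4 h, 377 to 1290 for 3 days against 1 day, 3 to 422 for 10 days against 3 days and 1135 to 3306 for any time, and without 1 library over 0 to 1213 for the left group. The planned Arg1 to Arg2 ratio was not run, since Arg2 was not analysed here. Depth is known only roughly and limits what can be said of Nos2.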
